A study of Homo sapiens with 32 samples.

Results

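Dasatinib (Das) at 15 μM for 24 h was compared with the PBS control of the same time in MDA-MB-468 cells, over all genes with enough reads. The comparison holds 8 of the 32 RNA-seq libraries of the series, 4 with Das and 4 of the control, chosen by the treatment, the concentration and the 24 h incubation in their labels. The other 24 h groups, salinomycin (Sal, 0.5 μM) and the 2 drugs together, also entered the fit. They shared in the choice of the genes tested, in the scaling, in the term for batch and in the estimate of the spread. Das and PBS at 72 h were used to see where the response differed later. The 4 libraries of a group came from biological replicates of 1 cell line, each a flask of cells that received PBS or drug after a night in culture. The methods give DMSO as the solvent of the drug stocks and PBS as the control. Whether the control also held DMSO is not stated, and a part of the solvent in the differences was not tested. MDA-MB-468 is an established line of triple-negative breast cancer, a type that lacks the hormone receptors and high ERBB2, and it carries very high levels of the EGF receptor. A single line at a single dose limits what the comparison can stand for.

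Das is an oral inhibitor that sits in the ATP pocket of ABL, of the Src family kinases, of ephrin receptors, of DDR receptors and of several other tyrosine kinases. Src family kinases relay signals from integrins at focal adhesions and from receptor tyrosine kinases such as EGFR to the RAS, RAF, MEK and ERK cascade, to STAT3, to the actin cytoskeleton and to YAP. ERK activity is read out by immediate early transcription factors (EGR1, FOS and their relatives) and by feedback genes (DUSP, SPRY and ETV genes), whose short-lived transcripts follow the activity of the cascade closely. The comparison asks which of these and other transcripts differed after 24 h with Das.

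The authors deposited raw counts of reads per Ensembl gene. The control libraries held between 32788584 and 42769687 counts and the Das libraries between 25692561 and 40576754, and the 50 most counted genes took 9.43% to 9.70% of the control and 8.60% to 8.84% of the Das counts. Levels are given as CPM, reads of a gene per 1000000 reads of the library after TMM scaling, and where 4 values are listed they stand in the order of the unnumbered library and libraries 1, 2 and 3. In each group 1 library carries no replicate number, and the unnumbered control and Das libraries deviated from their group means together (correlation 0.63 over genes, none of which is an independent replicate), so they were treated as a batch through a term of the model. That term passed an adjusted p of 0.01 for 8244 of the 16357 genes tested (50.4%). The cells carried the markers of breast epithelium, whose 9 genes summed to between 11914 and 12562 CPM in the control and between 9012 and 11134 CPM with Das. PGR had no count in 7 of the 8 libraries, the T cell marker CD3E was at 0 in all 8, and COL3A1 and DCN stayed at or below 0.0768 CPM. Of the markers of other cell types, the sum of 4 fibroblast genes rested on COL1A1 and was 18.3 to 36.9 CPM in the control and 45.3 to 63.2 with Das, and the sum of 4 blood genes rested on CD14 and was 11.1 to 14.9 and 2.73 to 4.16. The sum of the endothelial markers was 0.696 to 0.991 CPM in the control and 1.02 to 1.31 with Das, and that of the hepatocyte markers 0.121 to 0.282 and 0.234 to 0.383. Each fibroblast, endothelial and hepatocyte set had 1 tested gene, and the part of these sums in the results below was not tested. These are bulk samples, in which fewer cells of a kind and less RNA per cell cannot be told apart.

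Past the 2 cutoffs of the study (an absolute log2 fold change above 1.5, and a Benjamini-Hochberg adjusted p under 0.01, here from edgeR), 297 genes were higher with Das, 1.82% of those tested, and 205 were lower, 1.25%. From the adjusted p alone, 2484 genes were higher (15.2%) and 2584 lower (15.8%), and these shares are the background for every list below, whose members were called in the same way. Medians and counts of a list are descriptions of its members, which were not chosen independently of these data. In 2418 genes (14.8%) all 4 Das libraries lay above all 4 control libraries, and in 2378 (14.5%) all lay below. Large changes were few: 77 genes passed an absolute log2 fold change of 3 and 27 passed 4, 19 of them higher. The median log2 fold change over all genes was 0.01, a value that TMM scaling holds near 0. Among 1940 long noncoding RNA genes tested, 71 were higher and 37 lower past both cutoffs (5.57%), and among 13143 protein-coding genes 203 and 160 (2.76%). Without the batch term the counts past both cutoffs were 242 and 166, and from the numbered libraries alone they were 336 and 210. With only the Das and control libraries in the fit they were 254 and 183. From the adjusted p alone, 1143 genes were higher and 1125 lower without the batch term, so fewer members of most lists passed there. Gene coordinates below are those of GRCh37.

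**Figure D1:**
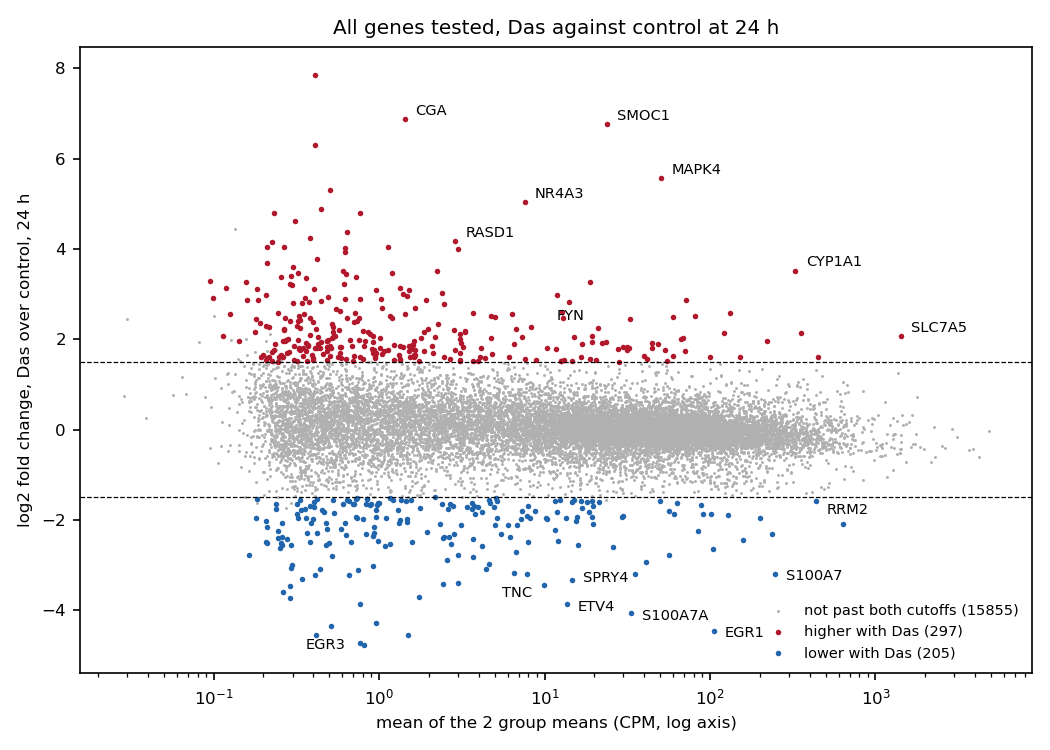
Each point is 1 of the 16357 genes tested, with the mean of the 2 group means in CPM on a log axis and the log2 fold change of Das over control at 24 h. The 297 genes higher with Das (red) and the 205 lower (blue) lie past the dashed lines at 1.5 in either direction, genes with no count in 1 group stand at their fitted value, which is no bound, and SMOC1, MAPK4 and CYP1A1 rose far at well-counted levels while EGR1, S100A7 and S100A7A fell.

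The 10 largest rises among genes with a symbol, at least 1 CPM and no overlap of the libraries were CGA, SMOC1, MAPK4, NR4A3, LINC02437, RASD1, LINC01913, CMBL, CCN5 and NECAB2. SMOC1 (ENSG00000198732, chr14:70320848-70499083) encodes a secreted calcium-binding matrix protein that modulates BMP signaling. It stood at 0.517, 0.636, 0.248 and 0.315 CPM in the control and at 49.4, 50.0, 46.0 and 42.5 CPM with Das (log2 fold change 6.76, SE 0.22, adjusted p = 2.04e-14). The Das libraries were close together (SD 3.43 CPM) and far above every control library, with no overlap.

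MAPK4, an atypical MAP kinase (ENSG00000141639, chr18:48086457-48258196), rose from 1.57, 1.91, 2.17 and 2.68 CPM to 64.0, 109.9, 112 and 113 CPM (log2 fold change 5.57, SE 0.13, adjusted p = 1.54e-16). The unnumbered Das library was the lowest of the 4, yet lay above all controls. CGA (ENSG00000135346, chr6:87795216-87804824), the alpha subunit shared by the pituitary and placental glycoprotein hormones and a classical target of cAMP and CREB, had at most 3 counts in each control library and 4.62, 1.87, 2.10 and 2.76 CPM with Das. Set against 3 counts per control library, CGA was at least 33.6-fold higher. RASD1, a small GTPase induced by glucocorticoids, rose from 0.563, 0.182, 0.138 and 0.283 to 5.62, 5.89, 6.10 and 4.34 CPM (log2 fold change 4.17), and CCN5, a matricellular protein of the CCN family, from 0.845, 0.182, 0.220 and 0.252 to 9.52, 4.74, 4.25 and 3.92 CPM (3.99). In CCN5 the unnumbered library was the highest of both groups. The others were CMBL, a hydrolase (4.02), NECAB2, a calcium-binding protein (3.93), and the noncoding LINC02437 (4.37) and LINC01913 (4.05), each at or below 2.13 CPM on average with Das.

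The 10 largest falls by the same rule were EGR3, LRRC4, TM4SF18-AS1, EGR1, IL7R, S100A7A, ETV4, ADGRF5, ACOX2 and TNC. EGR1, EGR3 and ETV4 are transcription factors induced by ERK and are described with their groups below. S100A7A (ENSG00000184330, chr1:153388996-153395698), a neighbour of psoriasin among the epidermal S100 genes, fell from 68.4, 60.5, 61.4 and 62.8 to 6.77, 2.46, 2.44 and 3.30 CPM (log2 fold change -4.07, SE 0.26, adjusted p = 2.59e-10). IL7R, the interleukin 7 receptor chain, stood at 3.78, 1.09, 1.32 and 1.13 CPM in the control and 0.0957, 0.0878, 0.0625 and 0.115 CPM with Das (log2 fold change -4.29), and the unnumbered control library was the highest of all 8. LRRC4, a synaptic adhesion protein, had at most 3 counts in each Das library and was at least 16.2-fold lower than its control mean of 1.49 ± 0.179 CPM (SD, n = 4). ADGRF5 (an adhesion receptor, -3.87), ACOX2 (a peroxisomal oxidase of bile acid intermediates, -3.71) and TM4SF18-AS1 (-4.54) were all under 4 CPM in every control library. TM4SF18-AS1 shares 22.5% of its exon bases with TM4SF18, and since the use of the strand in counting is not known, the reads of the 2 cannot be told apart.

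Of the largest changes in absolute level, measured by the difference of the mean CPM, SLC7A5 (from 549.8 ± 59.4 to 2299 ± 351 CPM, SD, n = 4), CYP1B1 (806 ± 46.3 to 1926 ± 224) and SEC61G (1324 ± 88.3 to 2226 ± 439) led the rises. ACTB (5076 ± 130.1 to 3356 ± 148), FLNA (4473 ± 425 to 3284 ± 362) and TUBB (4274 ± 433 to 3101 ± 156) led the falls. SLC7A5 imports large neutral amino acids, SEC61G is a subunit of the protein translocon of the endoplasmic reticulum, and ACTB, FLNA and TUBB encode cytoskeletal proteins. FLNA passed the threshold (log2 fold change -0.44, adjusted p = 0.00243 from edgeR) but not without the batch term, the unnumbered control library, the unnumbered Das library or control library 3, where its adjusted p reached 0.0223.

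Among 21 of 26 kinases that Das binds, 2 were higher and 6 lower (background 15.2% and 15.8%, median log2 fold change -0.10 against 0.01 over all genes). FYN, a Src family kinase, was the largest rise of the list, from 8.43, 6.93, 7.26 and 6.58 CPM in the control to 39.2, 31.0, 34.1 and 34.6 CPM with Das (log2 fold change 2.25, SE 0.08, adjusted p = 8.57e-14). Every Das library was above every control library by a wide margin. DDR2, a collagen receptor kinase, rose from a low level of 0.479 ± 0.0562 to 1.66 ± 0.581 CPM (log2 fold change 1.74). SRC itself was at 51.7, 48.6, 47.7 and 51.8 CPM and then 42.7, 39.4, 37.5 and 38.3 CPM (log2 fold change -0.34, SE 0.09, adjusted p = 0.00452), the related YES1 fell by 0.39 (not called without the batch term, adjusted p = 0.0109) and LYN by 0.42 on the log2 scale, and FRK (0.07), CSK (-0.10), ABL1 (0.09) and ABL2 (-0.07) did not pass. For SRC the groups did not overlap, but the call was lost in 7 of the 16 other fits, with adjusted p up to 0.0216, among them the fits without the unnumbered control library, without control library 3 and without Das library 1, 2 or 3. The ephrin receptors EPHA2 (log2 fold change -1.05) and EPHB2 (-0.57) and the collagen receptor DDR1 (-0.57) fell. LCK, FGR, BLK and PDGFRB were among those too little counted to be tested.

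Of 12 EGFR family receptors, ligands and inhibitors tested, 3 were higher and 2 lower (median 0.00). EGFR was not called (log2 fold change -0.04, SE 0.11, adjusted p = 0.796): it stood at 4679, 4792, 4872 and 4915 CPM in the control and 2868, 5388, 5287 and 5897 CPM with Das. The unnumbered Das library was the lowest of the 8 and the 3 numbered ones the highest, and with the numbered libraries alone EGFR was higher by 0.20 on the log2 scale (adjusted p = 0.00181 from edgeR). ERBB2 rose from 116, 110.0, 117 and 118 to 170.1, 195, 185 and 171 CPM (log2 fold change 0.65), while ERBB3 did not pass (0.04). Among the ligands HBEGF rose (1.20) and the scarce EPGN rose (1.60), NRG2 fell (-1.94), and TGFA (-0.17), BTC (0.15) and EGF (0.03) did not pass. ERRFI1, an inducible inhibitor of EGFR, fell from 109.7 ± 24.8 to 57.5 ± 10.2 CPM (-0.92). EPGN was not called without the batch term (adjusted p = 0.0160).

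Most of the transcripts listed here as outputs of ERK fell, and ERK activity itself was not measured. Of 20 ERK feedback and output genes, 14 were lower and 2 higher, against a background of 15.8% lower and 15.2% higher, and the median log2 fold change was -0.78. ETV4, ETV5 and ETV1 are the PEA3 factors, which ERK induces and activates, and ETV4 fell most of the list. ETV4 (ENSG00000175832, chr17:41605212-41656988) stood at 33.3, 22.2, 22.9 and 23.8 CPM in the control and 2.15, 1.82, 1.72 and 1.27 CPM with Das (log2 fold change -3.87, SE 0.20, adjusted p = 2.15e-11). All 4 Das libraries were far below all 4 controls. ETV5 fell from 11.8 ± 1.94 to 1.31 ± 0.203 CPM (-3.18) and ETV1 from 8.15 ± 1.21 to 1.11 ± 0.505 CPM (-2.97). SPRY4, a feedback inhibitor of receptor signaling, fell from 30.0, 24.7, 25.4 and 27.1 to 2.13, 2.66, 3.00 and 2.88 CPM (log2 fold change -3.34, SE 0.14, adjusted p = 6.34e-13). DUSP6, the phosphatase that dephosphorylates ERK, fell from 11.5, 12.8, 11.6 and 11.1 to 1.22, 2.02, 2.22 and 1.88 CPM (log2 fold change -2.72, SE 0.18, adjusted p = 6.10e-10). DUSP6 shares 28.6% of its exon bases with an overlapping noncoding gene, from which its reads cannot be told apart here.

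Further members fell less: DUSP5, the nuclear ERK phosphatase (-1.99), TFPI2 (-2.38), CCND1 (-1.30), IER3 (-1.18), SPRED1 (-0.90), SPRED2 (-0.67), PHLDA1 (-0.60), SPRY1 (-0.52) and SPRY2 (-0.44). The 2 members that rose were EPHA4, an ephrin receptor (0.72), and IL11, a cytokine (1.00). MYC was not called: its level was 148, 128, 125 and 132 CPM in the control and 119, 137, 132 and 144 CPM with Das (log2 fold change -0.02, adjusted p = 0.891 from edgeR), and the groups overlapped. DUSP4 (0.29) and PLAUR (0.00) did not pass.

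The immediate early factors split, with 7 of 20 tested lower and 7 higher (median -0.02, and 3 lower and 4 higher without the batch term). EGR1 (ENSG00000120738, chr5:137801168-137804992) carried 259, 163, 191 and 191 CPM in the control and 23.8, 5.10, 5.82 and 8.14 CPM with Das (log2 fold change -4.46, SE 0.28, adjusted p = 2.13e-10). The unnumbered library was the highest in both groups, and no Das library came near a control. EGR3 fell from 0.751, 1.66, 1.68 and 2.20 to 0, 0.117, 0.0625 and 0.0384 CPM (-4.77) and FOSL1 (FRA1, an AP-1 subunit) from 5.49 ± 0.492 to 0.529 ± 0.111 CPM (-3.40). The AP-1 genes JUN (-1.58), JUNB (-1.21) and FOS (-1.13) and IER2 (-0.73) fell too. FOS was at 62.8, 22.7, 33.1 and 29.8 CPM in the control and 55.7, 11.4, 10.3 and 10.1 CPM with Das. In JUN, FOS and IER2 the groups overlapped, and the unnumbered Das library lay above the lowest control. FOS, JUN and JUNB were among the falls not called without the batch term, with adjusted p of 0.519, 0.113 and 0.0335.

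The NR4A orphan nuclear receptors moved the opposite way. NR4A3 (NOR1) rose from 0.470, 0.484, 0.468 and 0.409 to 12.6, 15.5, 15.7 and 15.0 CPM (log2 fold change 5.04, SE 0.33, adjusted p = 4.91e-10), NR4A1 (NUR77) from 38.0, 13.5, 15.5 and 15.7 to 72.5, 56.4, 54.6 and 51.4 CPM (log2 fold change 1.62, SE 0.13, adjusted p = 5.01e-09), and NR4A2 (NURR1) from 18.7, 19.7, 20.9 and 22.2 to 54.9, 52.6, 58.3 and 58.6 CPM (log2 fold change 1.46, SE 0.08, adjusted p = 4.97e-11). In all 3 every Das library lay above every control. ATF3 (0.77), KLF4 (0.70), MAFF (0.43) and JUND (0.35) rose less, and SRF, KLF2, KLF6, KLF10, FOSL2 and FOSB did not pass. In the whole list every Das library lay above every control for 4 genes, the 3 NR4A genes among them. The groups therefore overlapped in most of the smaller rises. EGR2 and EGR4 were too little counted to be tested.

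The promoters of EGR1, a large fall from a high level, and of CGA, the first of the largest rises, are shown because each holds a tandem pair of the motif through which its class is known to be induced. For EGR1 this is the CArG box, bound by SRF, and for CGA the cAMP response element with the letters TGACGTCA, bound by CREB. CGA was chosen for this after its values were seen, and a part of either motif in these changes was not tested. Both are the 250 bases before the RefSeq start on GRCh38.p14, read 5′ to 3′ on the strand of the gene, chr5:138465229-138465478 on the plus strand for EGR1 and chr6:87095107-87095356 on the minus strand for CGA, with the motif in capitals.
EGR1: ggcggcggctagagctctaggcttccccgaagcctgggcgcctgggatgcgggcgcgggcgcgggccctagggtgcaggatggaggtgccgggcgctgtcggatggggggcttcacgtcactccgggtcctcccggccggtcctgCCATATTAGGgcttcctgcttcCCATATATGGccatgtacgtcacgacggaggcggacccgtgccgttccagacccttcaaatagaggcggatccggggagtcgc
CGA: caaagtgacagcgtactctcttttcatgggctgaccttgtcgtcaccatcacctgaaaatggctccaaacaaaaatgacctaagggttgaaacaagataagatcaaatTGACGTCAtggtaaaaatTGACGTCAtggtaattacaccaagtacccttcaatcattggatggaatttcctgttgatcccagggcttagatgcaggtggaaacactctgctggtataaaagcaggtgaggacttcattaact
The EGR1 boxes begin 105 and 83 bases before the start, and the CGA elements 142 and 124 bases before it.

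Of all 16701 RefSeq promoters of 11557 tested genes, each 300 bases long, 1.1% held a CArG box and 2.68% a cAMP response element on either strand. Past both cutoffs, 138 of the lower genes held 203 of these promoters and 176 of the higher genes held 248. The shares, which are of promoters and not of genes, were 1.48% and 1.97% for the lower and 2.02% and 2.82% for the higher genes. The AP-1 site TGANTCA was in 14.3% of the lower, 8.87% of the higher and 5.46% of all promoters. The ETS site CCGGAAGT was in 0 promoters of the lower genes, in 0.806% of those of the higher genes and in 6.97% of all. The forkhead site GTAAACA was in 5.91%, 2.42% and 2.62% in the same order, and the TEAD site GGAATG in 12.8%, 12.1% and 11.6%. For the sterol response element TCACNCCAC the shares were 2.46%, 0.806% and 1.05%, and for the xenobiotic response element TTGCGTG 1.48%, 0% and 1.5%. A match is a description of letters, and these shares were not tested.

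**Figure D2:**
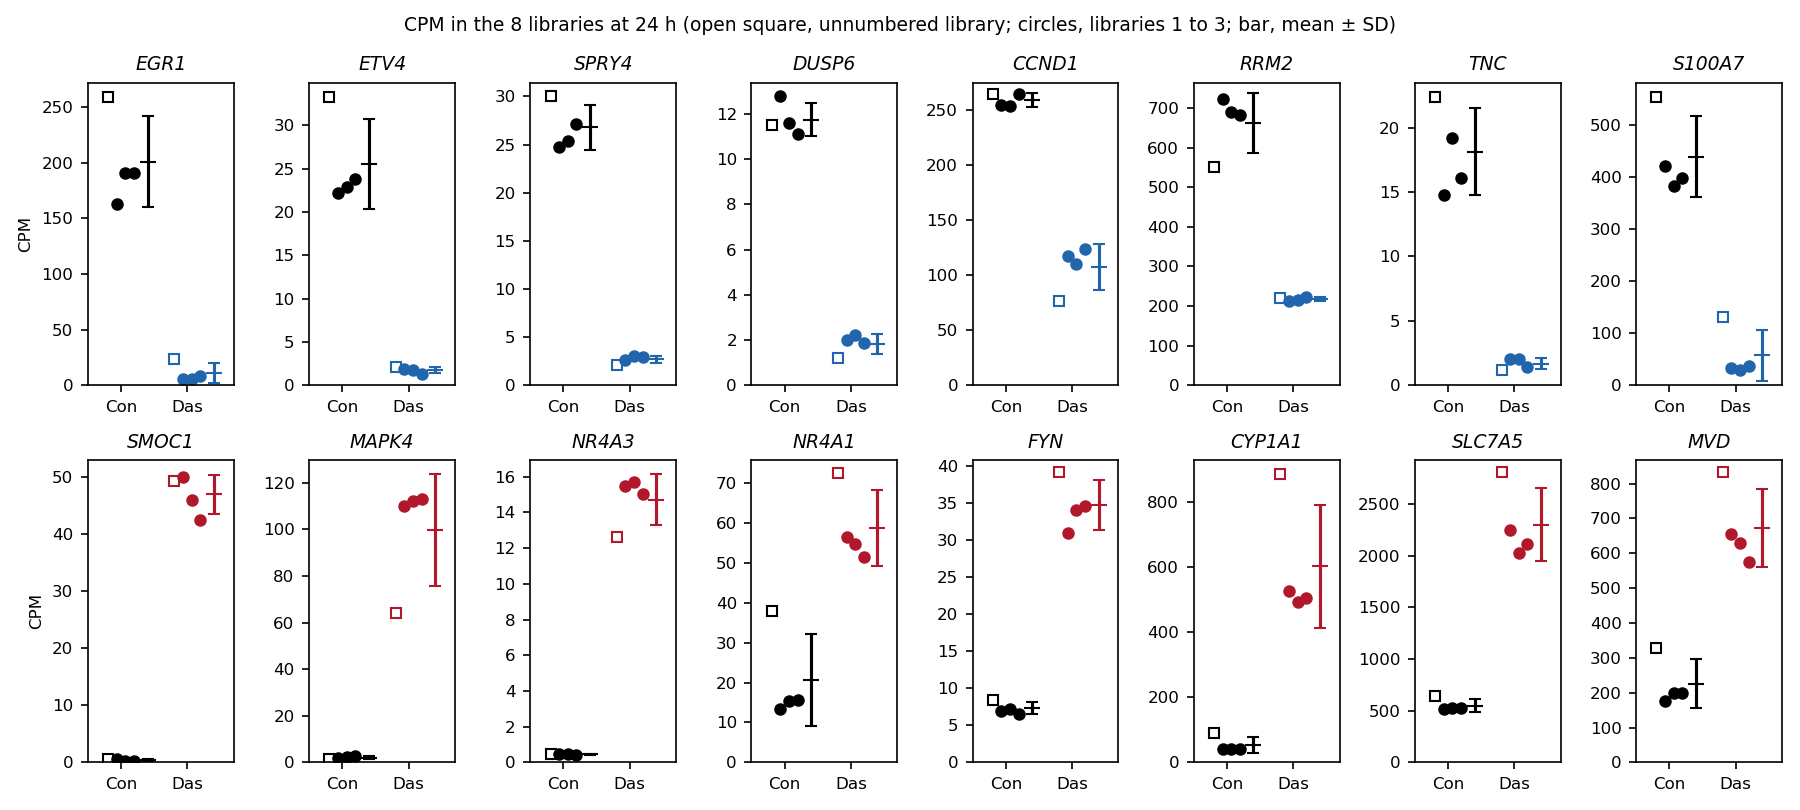
Each panel gives the CPM of 1 gene, on its own linear axis from 0, in the 4 control (Con, black) and 4 Das libraries at 24 h, with the unnumbered library as an open square, libraries 1 to 3 as circles and the mean ± SD (n = 4) beside them. All 16 genes have Das libraries that lie wholly below (blue) or above (red) the controls. The unnumbered library stands apart in at least 1 group for MAPK4, NR4A1, CYP1A1, S100A7, EGR1, ETV4, MVD and SLC7A5.

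Genes of the actin cytoskeleton fell together. Of 22 SRF targets and actin genes, 14 were lower and 0 higher, with a median of -0.36. The falls were modest in the abundant members, such as ACTB (from 5079, 4927, 5054 and 5244 to 3402, 3430.4, 3135 and 3454 CPM, log2 fold change -0.60), ACTN1 (-0.79), VCL, the focal adhesion protein vinculin (-0.59), MYH9 (-0.44) and ACTG1 (-0.40). They were larger in MYL9, a myosin light chain at 1.56 ± 0.304 CPM in the control and 0.312 ± 0.0810 CPM with Das (-2.30), and in TAGLN (-0.98), which shares 47.8% of its exon bases with another gene. ZYX, TLN1, TAGLN2, TPM1 and TPM2 did not pass. Of 18 YAP and TEAD targets, 9 were lower and 1 higher (median -0.43): ANKRD1 (-1.50), F3, the tissue factor that starts coagulation (-1.41), CCN2 (-1.19), TGFB2 (-1.06) and AMOTL2 (-0.93) fell, AJUBA rose (0.35), and CCN1 (-0.38) did not pass. CCN2 was at 62.6, 15.9, 19.9 and 17.9 CPM in the control and 17.2, 9.69, 9.82 and 9.60 CPM with Das. Its unnumbered library was the highest of each group, the groups overlapped, and without the batch term it was not called (adjusted p = 0.0219). Without that term 4 members of this list and 9 of the actin list were lower.

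Of 27 integrins, laminins and other matrix genes, 13 were lower and 1 higher (median -0.38, and 7 lower and 0 higher without the batch term). TNC, the matrix glycoprotein tenascin C, stood at 22.4, 14.8, 19.2 and 16.1 CPM in the control and 1.20, 2.05, 2.03 and 1.42 CPM with Das (log2 fold change -3.44, SE 0.19, adjusted p = 3.14e-11). All Das libraries were far below the controls. ITGA9, a tenascin-binding integrin (-2.77), MMP7, a matrix protease (-2.57), LAMB3, a laminin chain of hemidesmosomes (-1.27), and the laminin receptor subunit ITGB4 (-1.05) fell, as did ITGA6 (-0.67), ITGAV (-0.52), ITGB1 (-0.38) and CD44 (-0.55). ITGA2, the collagen-binding subunit, rose (0.45), and FN1 (0.17), THBS1 (-0.21) and ITGA5 (-0.16) did not pass.

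Genes of mitosis and DNA replication were lower. All 28 mitotic genes tested were lower, by a log2 fold change between -1.41 and -0.92 (median -1.19), and in all 28 every Das library lay below every control. CDK1 stood at 233, 232, 213 and 209.7 CPM in the control and 116, 68.8, 80.3 and 75.4 CPM with Das (log2 fold change -1.41, SE 0.14, adjusted p = 1.09e-07), the kinesin KIF20A at 268, 361, 343 and 347 and 139, 119.8, 121 and 126 CPM (-1.37), and PLK1 at 194, 277, 273 and 279 and 102, 103, 98.0 and 93.0 CPM (-1.35). MKI67, which encodes the proliferation antigen Ki-67, fell from 731 ± 146 to 304 ± 80.3 CPM (-1.28). No mitotic gene passed the cutoff of 1.5 on the fold change. Of 32 DNA replication genes, 27 were lower and 0 higher, with a median of -0.52. RRM2, the inducible subunit of ribonucleotide reductase, fell from 551, 723, 689 and 682 to 220.4, 213, 216 and 222 CPM (log2 fold change -1.59, SE 0.08, adjusted p = 8.39e-12), and TYMS (-1.01) and RRM1 (-0.97) followed. TYMS shares 47.9% of its exon bases with ENOSF1. ORC1, CDT1, RFC4, PRIM1 and MCM6 did not pass.

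Among 23 G1/S cyclins, E2F factors and CDK inhibitors, 13 were lower and 1 higher (median -0.36). CCND1, cyclin D1, stood at 264, 254, 253 and 264 CPM in the control and 76.6, 117, 110.2 and 124 CPM with Das (log2 fold change -1.30, SE 0.09, adjusted p = 1.35e-09). All Das libraries were lower, the unnumbered one most. E2F7 (-1.25), E2F8 (-1.07), CDC25A (-0.87), CCNE1 (-0.62), CCNE2 (-0.75) and E2F2 (-0.71) fell, and so did the inhibitors CDKN2C (-0.95) and CDKN2D (-0.97). CDKN1C rose (0.56), but its groups overlapped and it was not called without the batch term. CDKN1A (0.13), CDKN1B (0.01), E2F1 (0.05), CDK4 (-0.16) and CDK6 (-0.11) did not pass. ESR2, which encodes estrogen receptor beta, had at most 6 counts in any of the 8 libraries and was not tested at 24 h.

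Sterol genes rose as a group. Of 31 genes of sterol and fatty acid synthesis, 25 were higher and 0 lower, against a background of 15.2% higher, and the median was 0.67. MVD, a mevalonate pathway enzyme, rose from 329, 176, 198 and 200.3 to 833, 654, 629 and 575 CPM (log2 fold change 1.60, SE 0.12, adjusted p = 2.33e-09). The unnumbered library was the highest of each group and no Das library overlapped a control. TM7SF2 (1.28), LSS (1.11), HMGCS1 (1.06), SQLE (0.99), IDI1 (1.01) and INSIG1 (1.03) also rose. FASN (0.33), FADS1, FADS2, PMVK and SREBF1 (-0.29) did not pass. From the numbered libraries alone, 28 of the 31 were higher and 1 lower.

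Targets of ATF4, the factor of the integrated stress response, rose, with the highest median of the 23 lists. Of 25, 23 were higher and 1 lower (median 0.96). SLC7A5 was at 639, 513, 523 and 525 CPM in the control and 2808, 2249, 2027 and 2114 CPM with Das (log2 fold change 2.06, SE 0.07, adjusted p = 2.04e-14). The folate enzyme ALDH1L2 rose from 75.3, 93.2, 94.0 and 89.4 to 204, 385, 404 and 425 CPM (1.96) and CTH, which makes cysteine, from 9.80 ± 1.10 to 37.2 ± 3.42 CPM (1.93). The 3 genes had no overlap between groups, and the unnumbered Das library was the highest for SLC7A5 and the lowest for the others. DDIT3, which encodes CHOP (1.91), CHAC1 (1.80), SLC7A11 (1.41), SLC3A2, the partner chain of SLC7A5 (1.32), ASNS (1.30) and PSAT1 (0.96) rose, ATF4 itself rose by 0.31, CEBPB fell (-0.76) and ATF5 did not pass (-0.15).

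Of 12 targets of the aryl hydrocarbon receptor, 7 were higher and 1 lower (median 0.56). CYP1A1 (ENSG00000140465, chr15:75011883-75017877), the xenobiotic-metabolizing enzyme most used as a readout of that receptor, rose from 89.1, 42.3, 41.6 and 40.9 CPM in the control to 885, 526, 494 and 504 CPM with Das (log2 fold change 3.52, SE 0.15, adjusted p = 9.04e-13). The unnumbered library was the highest in each group, and the lowest Das library was above the highest control. CYP1B1 rose from 775, 875, 794 and 781 to 1644, 1918, 1949 and 2191 CPM (1.25), and TIPARP (0.38), AHRR (0.65), AHR (0.57) and NQO1 (0.55) rose less. CYP1A2 was scarce and did not pass, and ALDH1A3, a retinaldehyde dehydrogenase, fell (-1.12). Of 22 NRF2 targets 7 were higher and 3 lower (median 0.05, and 1 lower and 4 higher without the batch term), and 2 of the higher ones, SLC7A11 and NQO1, stand on other lists as well. HMOX1 (0.04), GCLM (0.05), GCLC (0.14) and TXNRD1 (-0.02) did not pass, and AKR1B10 (-0.82), ABCC3 (-0.58) and OSGIN1 (-0.77) fell, OSGIN1 with overlapping groups and no call without the batch term (adjusted p = 0.160).

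Lysosome and autophagy genes moved both ways, 10 of 30 higher and 7 lower (median 0.17, and 3 lower and 4 higher without the batch term). GPNMB, a glycoprotein of lysosomes and melanosomes, rose from 29.7, 26.0, 27.2 and 26.3 to 109.7, 111, 115 and 106 CPM (log2 fold change 2.02, SE 0.11, adjusted p = 3.54e-11) with tight groups that did not overlap. WIPI1, an autophagosome protein, rose (1.51) and shares 28.1% of its exon bases with ARSG. CTSL rose (1.04) while CTSB (-1.07) and CTSD (-0.67), other lysosomal proteases, fell, and LAMP1, LAMP2 and TFEB did not pass. Of 23 FOXO targets and PI3K feedback genes 4 were higher and 9 lower (median 0.00, and 2 lower and 2 higher without the batch term), with IRS1 (-0.79) and PIK3R1 (-0.56) lower and CITED2 (0.68) and TSC22D3 (0.61) higher. IRS1 was not called without the batch term (adjusted p = 0.0180).

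Inflammatory transcripts were mostly lower. Of 23 chemokines and NF-kB targets tested, 14 were lower and 2 higher (median -0.64, and 6 lower and 1 higher without the batch term). LIF, a cytokine of the interleukin 6 family, stood at 96.2, 25.6, 29.3 and 30.6 CPM in the control and 8.80, 5.89, 7.29 and 4.76 CPM with Das (log2 fold change -2.60, SE 0.18, adjusted p = 1.22e-09). CXCL8, interleukin 8, was at 11.3, 2.30, 1.65 and 1.67 and 1.51, 0.439, 0.438 and 0.461 CPM (-2.38). For both the unnumbered library was the highest in each group, and no Das library reached the lowest control. CCL20 (-1.95), SAA1 (-1.93), CXCL1 (-1.44), CXCL16 (-1.16) and LCN2 (-0.65) fell. IL6 rose from a trace, 0.0779 ± 0.0616 to 0.461 ± 0.340 CPM (2.47), and IL18 rose (0.39), and NFKB1, NFKB2, NFKBIA and TNFAIP3 did not pass. Of 32 interferon-stimulated and MHC class I genes 9 were lower and 1 higher (median -0.19, and 5 lower without the batch term but 16 lower from the numbered libraries alone). IRF1 (-1.25) and OAS3 (-0.88) fell, ISG20 rose from 5.27 ± 0.863 to 18.2 ± 3.83 CPM (1.79), and HLA-B, HLA-C and B2M did not pass. IRF1 shares 22.9% of its exon bases with IRF1-AS1.

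Of 26 feedback targets of STAT3, Wnt and Notch, 10 were lower and 1 higher (median -0.33, and 5 lower and 1 higher without the batch term). DKK1, a secreted Wnt antagonist and Wnt target, fell from 8.92, 9.23, 8.78 and 9.45 to 1.22, 2.14, 1.94 and 2.27 CPM (log2 fold change -2.31, SE 0.18, adjusted p = 4.70e-09), with no overlap. AXIN2 (-0.77), TCF7 (-0.60), SOCS1 (-1.16), HES1 (-0.51), JAG1 (-0.77) and STAT3 itself (-0.63) fell, IL6R rose (1.26), and SOCS3 (-0.42), PIM1, BCL3, NOTCH1 and HEY1 did not pass.

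Epithelial genes moved in both directions. Of 31 keratins, junction genes and mesenchymal factors tested, 15 were lower and 6 higher (median -0.27, and 10 lower and 2 higher without the batch term). KRT23 fell from 139, 135, 137 and 145 to 17.4, 33.9, 36.3 and 33.9 CPM (log2 fold change -2.25, SE 0.12, adjusted p = 1.99e-11), and the basal keratins KRT5 (-1.09), KRT14 (-1.80), KRT15 (-1.10), KRT6A (-1.93) and KRT6B (-2.11) and the luminal KRT19 (-0.73), KRT8 (-0.67) and KRT18 (-0.40) fell. KRT81, a hair keratin, rose from 165, 114, 127 and 127 to 564, 623, 548 and 589 CPM (log2 fold change 2.14, SE 0.14, adjusted p = 6.40e-10), and KRT7 (0.32), KRT17 (0.62) and VIM (1.32) rose. CDH1 (-0.02), DSP, TJP1 and CLDN1 did not pass. KRT6A and KRT6B, like S100A7 and S100A7A, are near copies whose reads the authors' counting could have split between them.

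Of 24 mammary luminal and secretory genes tested, 11 were lower and 4 higher (median -0.19, and 5 lower and 2 higher without the batch term). The 3 largest falls were in the psoriasin and calprotectin genes. S100A7 was at 554, 422, 383 and 398 CPM in the control and 131, 32.3, 29.4 and 36.9 CPM with Das (log2 fold change -3.20, SE 0.23, adjusted p = 2.12e-09), S100A8 at 426, 92.6, 95.1 and 90.7 and 85.4, 13.4, 12.9 and 14.3 CPM (-2.64), and S100A9 at 1663, 801, 813 and 774 and 529, 175, 163 and 169 CPM (-2.09). For the 3 genes the unnumbered library was the highest of each group by far, and S100A8 was not called without the batch term (adjusted p = 0.0382). TFF1, a secreted trefoil peptide induced by estrogen in other breast lines, had at most 3 counts in each control library and 1.36, 1.02, 0.500 and 0.346 CPM with Das, at least 9.56-fold higher than 3 counts per library. SERHL2 rose from 0.352 ± 0.129 to 4.11 ± 0.679 CPM (3.50) and shares 46.0% of its exon bases with RRP7BP. AGR2 fell (-1.30), and GATA3 (-0.19), FOXA1 (-0.11) and SPDEF (-0.03) did not pass. ESR1 was called higher (0.42, adjusted p = 0.00500 from edgeR) with overlapping groups, and kept the call in 2 of 8 fits that left out 1 library.

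Of 21 BCL2 family and death receptor genes 6 were lower and 3 higher (median -0.07, and 2 lower and 1 higher without the batch term). MCL1, a labile survival protein, fell from 536, 426, 426 and 432 to 280.1, 260.1, 263 and 259 CPM (log2 fold change -0.77, SE 0.06, adjusted p = 1.39e-09), and BIRC3 (-0.85), BCL2L1 (-0.38), BAX (-0.31) and BID (-0.49) fell. The sensitizers HRK (1.15) and BBC3, which encodes PUMA (0.50), and the receptor TNFRSF10B (0.38) rose, while BCL2L11, which encodes BIM, did not pass (0.15). In this list every Das library lay above every control for 1 gene and below every control for 3. The groups therefore overlapped in most of the rises and in part of the falls. Of 30 glycolysis and hypoxia genes 14 were lower and 2 higher (median -0.33). PKM (-0.71), LDHA (-0.84), PGK1 (-0.48) and ENO1 (-0.44) fell, VEGFA (0.63) and SLC16A3 (0.48) rose, and GAPDH (-0.17) and SLC2A1 (-0.21) did not pass. CA9, a carbonic anhydrase induced by hypoxia, was at 208, 35.6, 54.4 and 53.6 CPM in the control and 117, 11.9, 18.1 and 10.4 CPM with Das (-1.63). Its unnumbered libraries were far above the rest, the groups overlapped, and it was not called without the batch term (adjusted p = 0.508). ADM (-1.11, adjusted p = 0.00998) and SLC2A3 (-1.02, adjusted p = 0.00256) also overlapped. In the whole list every Das library lay below every control for 4 genes and above every control for 1. The groups therefore overlapped in most of the 14 falls. ADM lost its call in 10 of the 16 other fits: with RLE in place of TMM, without the batch term, with the replicate number as a block (adjusted p = 0.0135 from edgeR), and without any 1 library other than the unnumbered control. SLC2A3 lost its call in 6: with DESeq2, in the fit of all 32 libraries, without the batch term, from the numbered libraries alone (adjusted p = 0.0857 from edgeR), and without the unnumbered control or Das library. Without the batch term, 3 members of this list were lower.

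**Figure D3:**
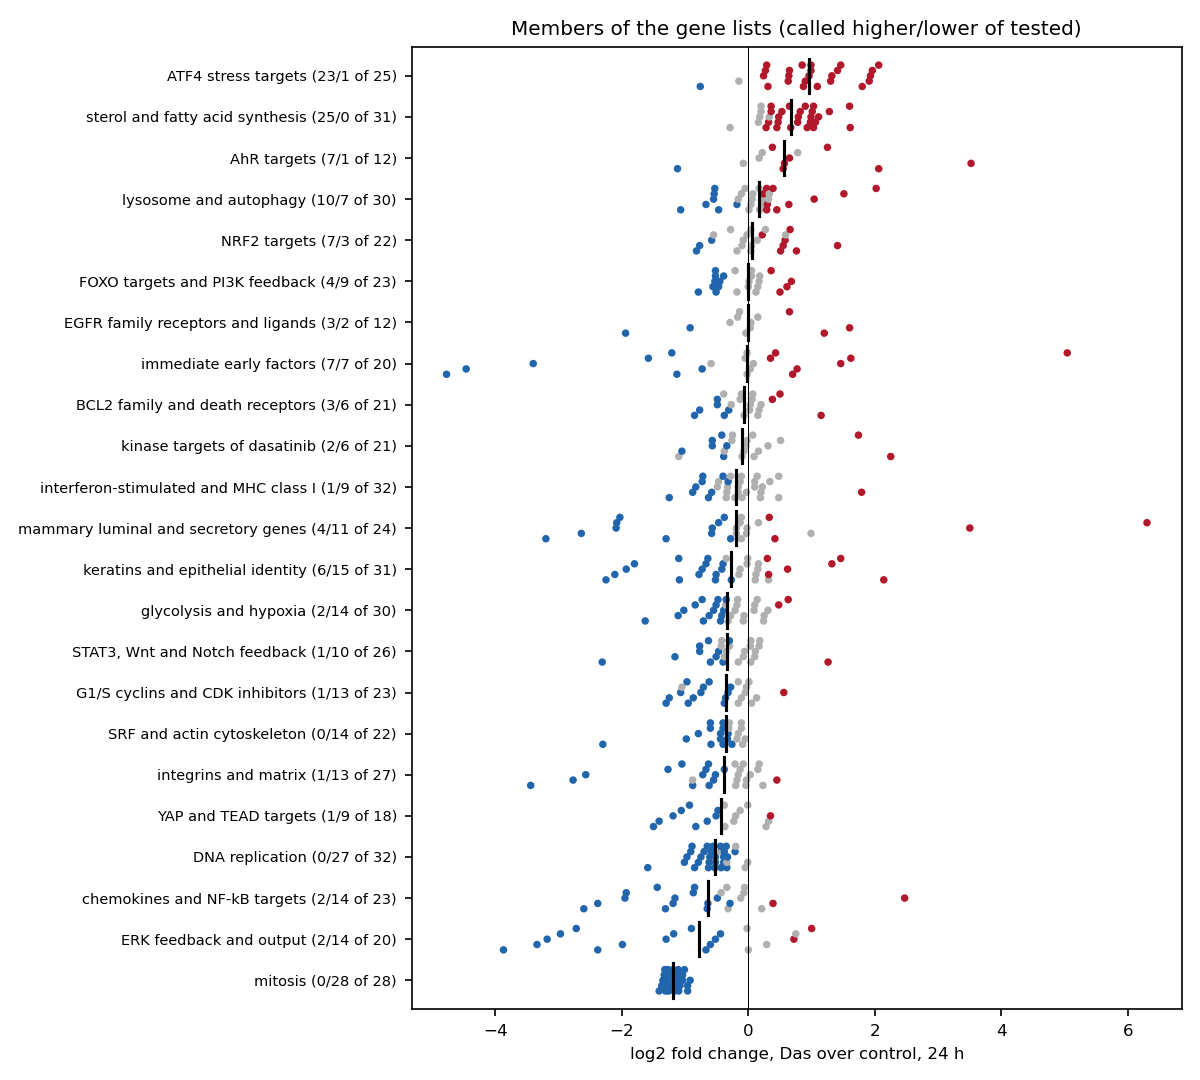
Each point is a tested member of a gene list at its log2 fold change of Das over control at 24 h, red where it was called higher and blue where it was called lower at an adjusted p of 0.01, grey where it did not pass, and the bar is the median of the list. ATF4 targets and sterol genes lie to the right of 0 (medians 0.96 and 0.67), ERK outputs and mitotic genes to the left (medians -0.78 and -1.19), and the immediate early factors spread from -4.77 to 5.04.

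The response was also set beside that of Das at 72 h, which shares no library with it. Tested as an interaction over all 32 libraries and 17227 genes, the Das response differed between the times for 435 genes (2.53%), 120 with a higher and 315 with a lower log2 fold change at 72 h. These counts rest on few libraries: without Das library 3 of 72 h, the one nearest its controls, they were 927 and 1069, and with the replicate number as a block 68 genes were higher. At least 1 of the 2 counts also moved by over 1.5 times without control library 1, 2 or 3 of either time, without the unnumbered Das library or Das library 1 of 24 h, and without the unnumbered Das library or Das library 1 or 2 of 72 h, with counts from 38 to 927 higher and from 156 to 1069 lower. Without the batch terms 9 genes were higher and 30 lower.

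Of 20 ERK outputs, 8 passed the threshold for the difference between the times, and the median log2 fold change of the list was -1.31 at 72 h, a shift that was not tested for the list. The log2 fold change of ETV5 was -3.19 at 24 h and -5.85 at 72 h (difference -2.66, SE 0.28, adjusted p = 3.81e-07 from edgeR), that of SPRY4 was -3.36 at 24 h and -5.44 at 72 h (adjusted p = 9.23e-06) and that of DUSP6 was -2.75 at 24 h and -4.69 at 72 h (adjusted p = 1.93e-04). MYC, which was not called at 24 h, had -0.04 at 24 h and -1.14 at 72 h (adjusted p = 8.42e-04). TNC, MMP7, KRT6B, S100A7 and S100A7A likewise had lower values at 72 h, and GPNMB and SERHL2 higher ones. The rises with a lower value at 72 h were those of MAPK4 (5.55 at 24 h and 3.88 at 72 h, adjusted p = 3.69e-05), CCN5 (3.99 at 24 h and 1.83 at 72 h), FYN (2.23 at 24 h and 1.40 at 72 h, adjusted p = 7.20e-04) and ISG20 (1.76 at 24 h and 0.66 at 72 h). The differences of these named genes passed in all 16 fits that left out 1 library, except S100A7A in 13, GPNMB in 14 and SERHL2 in 15. Those fits kept the batch terms, without which only 9 genes of all tested had a higher and 30 a lower value at 72 h.

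Of the ATF4 targets, 9 of 25 passed, and the median of the list was 0.36 at 72 h. ASNS had 1.28 at 24 h and 0.55 at 72 h (adjusted p = 2.37e-05 from edgeR) and CHAC1 1.78 at 24 h and 0.79 at 72 h (adjusted p = 0.00382). Of the immediate early list 3 passed, NR4A1, whose rise of 1.60 at 24 h stood at 0.14 at 72 h (adjusted p = 0.00163), JUN (-1.61 at 24 h and -0.15 at 72 h, adjusted p = 0.00228) and FOS (-1.17 at 24 h and -2.65 at 72 h, adjusted p = 0.00817). FOS passed in 5 of the 16 fits that left out 1 library and not with the replicate number as a block (adjusted p = 0.0106). NR4A3 did not pass (5.03 at 24 h and 4.76 at 72 h, adjusted p = 0.824). No member of the mitosis (-0.77 at 72 h), DNA replication (-0.68), sterol (0.46) or AhR (0.63) lists passed, and at an adjusted p that misses the threshold their responses are not shown to be alike.

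**Figure D4:**
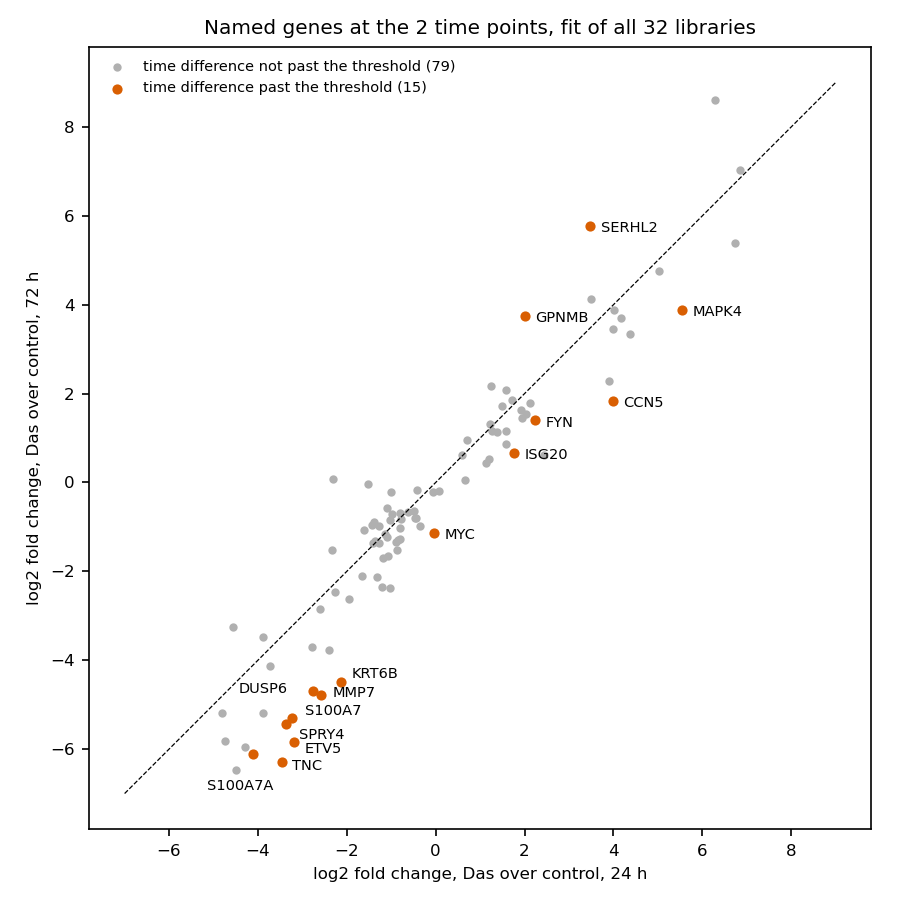
Each point is a named gene, with its log2 fold change of Das over control at 24 h on the horizontal and at 72 h on the vertical axis, both from the fit of all 32 libraries, and the dashed line marks equal values. The 15 genes whose response differed between the times at an adjusted p of 0.01 are labelled (orange), with ETV5, SPRY4, TNC and DUSP6 below the line and GPNMB and SERHL2 above it.

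To see where the levels with Das differed from those with the other single drug at 24 h, the Das libraries were compared directly with the 4 Sal libraries, and 4013 genes differed (24.5%), or 702 higher and 606 lower with Das when the batch term was left out. CYP1A1 was higher with Das than with Sal (log2 difference 3.37, adjusted p = 2.56e-12 from edgeR), as were SMOC1 (6.60, adjusted p = 3.19e-14), MAPK4 (6.41, adjusted p = 4.63e-17), FYN (2.48, adjusted p = 3.19e-14) and SLC7A5 (1.76, adjusted p = 2.98e-13). EGR1 (-3.69, adjusted p = 3.43e-09), ETV5 (-2.95, adjusted p = 3.78e-12) and TNC (-2.43, adjusted p = 8.86e-09) were lower with Das. In the ATF4 list 18 of 25 genes were higher with Das than with Sal and 0 lower, in the mitosis list 22 of 28 were lower, and in the ERK list 10 of 20 were lower and 3 higher.

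Other levels with Das did not differ from those with Sal past the threshold. Of the 31 sterol genes, 1 was higher and 2 were lower with Das than with Sal, and MVD had a log2 difference of 0.30, adjusted p = 0.0487 from edgeR. The same held for WIPI1 (-0.15, adjusted p = 0.124), GPNMB (0.21, adjusted p = 0.123), DDIT3 (0.20, adjusted p = 0.257) and ACTB (0.04, adjusted p = 0.635). NECAB2, among the 10 largest rises with Das, was at 1.58 ± 2.17 CPM with Sal and at 1.17 ± 0.550 CPM with Das (SD, n = 4; -0.11, adjusted p = 0.834). A p that misses the threshold does not show that the drugs act alike on these genes.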

How the data were processed

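The values used are raw counts per Ensembl gene, deposited by the authors in 1 table for 32 libraries. According to the methods and the submitters' processing notes, total RNA was made into TruSeq libraries and read as single ends on a HiSeq instrument, demultiplexed with bcl2fastq 2.19 and aligned with STAR 2.5.2 to GRCh37. How reads were assigned to genes, with which annotation and by strand or not, is not given in the sources used here. Cufflinks 2.1.1 FPKM values were not used. The authors tested with DESeq2.

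Symbols and GRCh37 positions came from GENCODE, which matched 46537 of 48804 identifiers. The 16 libraries of 24 h were fitted with edgeR 4.0.16 in R 4.3.3 (TMM, filterByExpr with a minimum count of 10, quasi-likelihood test, Benjamini-Hochberg adjustment), with the group and a term for the unnumbered library, and 16357 genes were tested. CPM were scaled by TMM, SE is that of the log2 fold change, and bounds use 3 counts per library. The response at 72 h against 24 h was fitted over all 32 libraries with 1 batch term per time. The fit was tested on simulated data. Alternatives were other normalization, filter, batch, block, libraries and DESeq2 1.42.0.

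Same-numbered control and Das libraries deviated together (correlation across genes 0.63 for the unnumbered, 0.16, 0.20 and 0.21 for 1, 2 and 3). Among the numbered libraries alone the same pairs gave -0.11, 0.01 and -0.03, so the pairing lay in the unnumbered library, which the batch term holds. The labels give no date or batch.

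Named genes are the 10 largest rises and falls, the 3 largest changes called in each of 23 lists, 10 genes of the drug's pathway (SRC, YES1, LYN, ABL1, EGFR, EGR1, DUSP6, CCND1, MYC and ESR2) and the 3 largest rises and falls in CPM. Other list members were picked as examples after their values were seen. Some genes of the lists are counted but not reported here by name. The comparison, the lists and the rule were chosen with earlier results of these data known. Replicates are biological per the methods. The p-values weigh each difference against the spread of the replicates left after the batch term, pooled over the groups of the fit.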

Additional observations from a re-analysis of the deposited data

Results flagged for a closer look

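Of 190 groups of 4 libraries (95 named genes in control and Das at 24 h), 42 held a library whose gap to the nearest other, divided by the range of the group, was above Dixon's 95% critical value for 4 samples, where chance alone gives about 1 in 20 groups. In 41 of the 42 this was the unnumbered library. For CGA and TFF1 in the control the others were all at 0, where any count at all passes the rule. In the control group the unnumbered library was highest for CGA (0.0704 CPM against 0), CCN5 (0.845 CPM against 0.182 to 0.252), IL7R (3.78 CPM against 1.09 to 1.32) and ETV4 (33.3 CPM against 22.2 to 23.8), each given against the range of the other 3. The same held in that group for ETV5 (14.7 CPM against 10.6 to 11.2), F3 (70.2 CPM against 39.3 to 43.0), CCN2 (62.6 CPM against 15.9 to 19.9) and MVD (329 CPM against 176 to 200.3). It was also the highest control library for SLC7A5 (639 CPM against 513 to 525), WIPI1 (33.0 CPM against 26.9 to 27.7), CYP1A1 (89.1 CPM against 40.9 to 42.3) and IRF1 (89.0 CPM against 66.2 to 68.0). Further control groups with the unnumbered library highest were those of LIF (96.2 CPM against 25.6 to 30.6), CXCL8 (11.3 CPM against 1.65 to 2.30), TFF1 (0.0235 CPM against 0) and BIRC3 (33.2 CPM against 27.0 to 27.7). So it was in control for MCL1 (536 CPM against 426 to 432), CA9 (208 CPM against 35.6 to 54.4) and SLC2A3 (2.61 CPM against 0.330 to 0.515). In the control group the unnumbered library was lowest for ITGA9 (4.30 CPM against 5.51 to 5.75), PLK1 (194 CPM against 273 to 279), E2F8 (46.2 CPM against 56.4 to 58.0) and TUBB (3629 CPM against 4448 to 4560.2), each given against the range of the other 3. In the Das group the unnumbered library was highest for CCN5 (9.52 CPM against 3.92 to 4.74), EGR1 (23.8 CPM against 5.10 to 8.14), CCN2 (17.2 CPM against 9.60 to 9.82) and MMP7 (1.67 CPM against 1.02 to 1.11), each given against the range of the other 3. The same held in that group for TSC22D3 (359 CPM against 249.6 to 262), TYMS (231 CPM against 146 to 158), CYP1A1 (885 CPM against 494 to 526) and OSGIN1 (15.3 CPM against 5.94 to 7.26). It was also the highest Das library for IRF1 (42.2 CPM against 26.4 to 28.3), CXCL8 (1.51 CPM against 0.438 to 0.461), S100A7 (131 CPM against 29.4 to 36.9) and CA9 (117 CPM against 10.4 to 18.1). Further Das groups with the unnumbered library highest were those of ADM (8.52 CPM against 1.96 to 2.97) and SLC2A3 (1.08 CPM against 0.176 to 0.313). In the Das group the unnumbered library was lowest for MAPK4 (64.0 CPM against 109.9 to 113), IRS1 (6.91 CPM against 13.8 to 14.6), E2F8 (23 CPM against 26.7 to 27.1) and KRT23 (17.4 CPM against 33.9 to 36.3), each given against the range of the other 3. Das library 2 was the lowest for ACTB, at 3135 CPM against 3402 to 3454.

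The difference between the Das responses at 72 h and at 24 h, tested as an interaction with edgeR's quasi-likelihood test and Benjamini-Hochberg adjustment, passed for 15 of the 95 named genes. On the log2 scale the response at 72 h differed from that at 24 h for MAPK4 by -1.66 (adjusted p = 3.69e-05), CCN5 by -2.16 (adjusted p = 0.00289), S100A7A by -2.0 (adjusted p = 0.00343), TNC by -2.84 (adjusted p = 0.00120) and FYN by -0.83 (adjusted p = 7.20e-04). Lower values at 72 h were also those of SPRY4 by -2.08 (adjusted p = 9.23e-06), ETV5 by -2.66 (adjusted p = 3.81e-07), MMP7 by -2.19 (adjusted p = 9.84e-05), ISG20 by -1.10 (adjusted p = 0.00171) and KRT6B by -2.37 (adjusted p = 1.61e-04). The remaining lower values were those of S100A7 by -2.06 (adjusted p = 9.74e-04), DUSP6 by -1.95 (adjusted p = 1.93e-04) and MYC by -1.10 (adjusted p = 8.42e-04). The response was higher at 72 h for GPNMB by 1.75 (adjusted p = 0.00308) and SERHL2 by 2.30 (adjusted p = 0.00308).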

How the results depend on the processing

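The counts past both cutoffs were within 1.5 times the reported ones in every alternative of normalization, filter, libraries or tool. A fold change above 1.5 in place of a log2 fold change above 1.5 gave 1337 genes higher and 1143 lower. Without the batch term the adjusted p alone passed 1143 genes higher and 1125 lower, Das against Sal gave 702 and 606, and the response at 72 h against 24 h gave 9 higher and 30 lower. That last comparison gave 444 and 562 when low counts were not filtered, and 68 higher with the replicate block. Leaving out 1 library at a time gave 279 to 336 higher and 183 to 221 lower past both cutoffs, 2046 to 2584 and 2137 to 2377 from the adjusted p alone, 1596 to 1851 and 1635 to 2121 for Das against Sal, and 38 to 927 and 156 to 1069 for 72 h against 24 h, the highest pair without Das library 3 of 72 h. EGFR turned positive at 0.01 without the batch term and 0.20 with the numbered libraries alone and ranged from -0.11 to 0.13 over the fits that left out 1 library, and MYC turned to 0.11 with the numbered libraries and ranged from -0.07 to 0.15; neither was called in the reported fit. Of 91 called named genes 81 kept the call in all 16 other fits, and the replicate block changed no other call of a named gene at 24 h than that of ADM. Without the batch term the number of members called lower moved by over 1.5 times, among lists with at least 3 such members, in immediate early factors (7 to 3), SRF and actin cytoskeleton (14 to 9), YAP and TEAD targets (9 to 4), integrins and matrix (13 to 7), FOXO targets and PI3K feedback (9 to 2), lysosome and autophagy (7 to 3), NRF2 targets (3 to 1), interferon-stimulated and MHC class I (9 to 5), chemokines and NF-kB targets (14 to 6), mammary luminal and secretory genes (11 to 5), STAT3, Wnt and Notch feedback (10 to 5), BCL2 family and death receptors (6 to 2) and glycolysis and hypoxia (14 to 3). The number called higher moved so in immediate early factors (7 to 4), FOXO targets and PI3K feedback (4 to 2), lysosome and autophagy (10 to 4), NRF2 targets (7 to 4), keratins and epithelial identity (6 to 2), mammary luminal and secretory genes (4 to 2) and BCL2 family and death receptors (3 to 1). From the numbered libraries alone the number called lower moved so in NRF2 targets (3 to 5) and interferon-stimulated and MHC class I (9 to 16) and the number called higher in kinase targets of dasatinib (2 to 4), YAP and TEAD targets (1 to 3) and integrins and matrix (1 to 3). The cause of these shifts was not tested. At 4 libraries a group, a gene with few counts, such as CGA or LRRC4 on its low side, has a fold known only as a bound.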

Other observations

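The gene groups here were put together after the values were seen, so their counts describe the data and test nothing. Of 23 genes of the circadian clock and its output, 11 were lower and 3 higher with Das at 24 h (median log2 fold change -0.43). Without the batch term 8 of the 23 were lower and 1 was higher. The repressors PER3 (-2.78), CRY1 (-2.47), CIART (-1.96), PER2 (-1.69) and BHLHE41 (-1.59) and the PAR bZIP factors HLF (-2.41) and TEF (-1.92) fell, while the activator NPAS2 rose (1.77) and PER1 (-0.36) did not pass. Of 13 cyclic nucleotide phosphodiesterases tested, 7 were higher and 0 lower (median 0.56), led by PDE7B (3.03), PDE4D (2.60), PDE8B (2.44) and PDE4B (2.00), enzymes that break down cAMP. Without the batch term 6 of the 13 were higher.

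Aminoacyl-tRNA synthetases charge tRNAs for translation. Of 20 cytosolic ones 12 were higher and 1 lower (median 0.26), and of 17 mitochondrial ones 0 were higher, 6 were lower and 11 did not pass (median -0.15). Leaving out the batch term, 8 cytosolic ones were higher and 1 mitochondrial one was lower. Of 16 S100 genes tested, 13 were lower and 1 higher (median -0.64), and the one that rose was S100P (2.51). Without the batch term 10 of the 16 were lower and 1 was higher. The imprinted noncoding RNA H19 fell (-2.94). The difference between cytosolic and mitochondrial synthetases was not tested.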
